A study of Bos taurus with 18 samples.

Results

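Interferon-stimulated genes were examined in bovine blastocysts produced in vitro, through every probe set that the platform annotation assigns to IRF7, ISG15, MX1, MX2 or B2M alone. Of 6 genes listed, these 5 were found, with 9 of the 24016 tested probe sets. IRF1 had no probe set under that rule and was not analysed here. Female blastocysts from sex-sorted semen of 3 bulls were set against male blastocysts from the same bulls, all of mixed breed, collected and snap frozen on day 7 after insemination. Every array (18 Affymetrix arrays in all) was hybridised with pooled RNA of 60 same-sex embryos of 1 sire, amplified from 50 ng, and each combination of sex and sire (6 groups) was measured 3 times. No group was treated with interferon, and every embryo came from sorted semen and in vitro culture, so neither has a comparison here. A pool hides differences between single embryos, each bull is 1 sire, and whether the pools within a group stem from separate fertilisations is not given in the labels. The p-values therefore cover only the spread among these pools.

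Type I interferons bind a shared receptor, and the signal that follows switches on a large set of genes with antiviral and antigen-presenting roles. In cattle the trophectoderm, the outer layer of the blastocyst, secretes its own type I interferon, interferon tau, which signals the presence of a conceptus to the mother. The response to it is best known from the endometrium, where ISG15, MX1 and MX2 are among its classical targets.

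The values are deposited log2 expression values, with array medians between 5.33 and 5.49 and all values between 1.89 and 14.15. Probe sets differ in their own brightness, so levels were compared between arrays and not between genes. Precision depends on how many arrays there are and on the spread between pools, and arrays have no read depth. XIST, the transcript behind X inactivation, lay between 8.87 and 9.57 in females and between 5.93 and 7.28 in males on its brightest probe set. Every array matched its label on that probe set. The dimmest XIST probe set overlapped (2.28 to 2.66 in females, 2.11 to 2.74 in males), as did the next dimmest (3.14 to 3.76 and 2.92 to 3.46). Whether a pool held any embryos of the other sex was not tested. Mean log2 values over the 18 arrays ran from 5.77 to 14.04 for 7 trophectoderm markers, from 8.70 to 11.93 for 3 inner cell mass markers, from 4.07 to 12.39 for 6 primitive endoderm markers and from 2.78 to 7.95 for 14 blood and immune cell markers. A wide spread of values relative to the other arrays (interquartile range of the deviation from each probe set's median over 0.25) set 4 arrays apart. These were female bull 1 replicate 3, male bull 1 replicate 2, male bull 2 replicate 1 and male bull 3 replicate 3, and results are given with and without them.

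IRF7 was the member that differed between the sexes. It encodes the transcription factor that amplifies type I interferon production after an initial signal. On its brightest probe set, log2 values in females were 9.34, 9.47 and 9.57 in bull 1, 9.14, 9.16 and 9.28 in bull 2, and 9.33, 9.32 and 9.21 in bull 3. In males they were 9.01, 9.09 and 8.91 in bull 1, 9.08, 8.92 and 8.68 in bull 2, and 8.86, 8.88 and 9.14 in bull 3. All 9 females stood above all 9 males, although the lowest female and the highest male both round to 9.14. Females averaged 9.32 ± 0.14 and males 8.95 ± 0.14 (SD, n = 9 arrays each), a female minus male difference of 0.36 log2 (SE 0.064), or 1.29-fold (limma, adjusted p = 0.000519 by Benjamini-Hochberg over all 24016 probe sets). The next brightest of its 3 probe sets gave 7.37 ± 0.14 in females and 7.05 ± 0.18 in males, a difference of 0.32 log2 (SE 0.059, adjusted p = 0.000764). The dimmest showed no such difference, with 4.28 ± 0.18 in females and 4.28 ± 0.24 in males (difference -0.0038 log2, 95% interval -0.19 to 0.18). The 3 probe sets thus disagree, and this last one lies at values between 3.92 and 4.72. Leaving out the 4 wide arrays, which gave 0.42 and 0.33 log2, or any single array kept both brighter probe sets past the threshold.

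The other members did not pass for sex. In all, 2 of 9 member probe sets were called, both of IRF7 and higher in females, beside 15.6% of all probe sets tested (8.12% higher and 7.47% lower in females). MX1, a dynamin-like GTPase that blocks the replication of several RNA viruses, had the largest difference but also a wide spread. Its log2 values in females were 5.93, 5.58 and 5.96 in bull 1, 6.61, 5.73 and 6.85 in bull 2, and 7.06, 6.84 and 6.46 in bull 3. In males they were 5.09, 4.64 and 5.49 in bull 1, 6.88, 5.30 and 6.41 in bull 2, and 5.51, 5.19 and 6.71 in bull 3. The sexes overlapped, with 6 of 9 males below every female and 2 males above the female median. Females averaged 6.33 ± 0.54 and males 5.69 ± 0.78, a difference of 0.64 log2 (SE 0.22, 95% interval 0.18 to 1.11, 1.56-fold), which missed the threshold in limma's fit (adjusted p = 0.0587). That call depended on single arrays. It passed without female bull 2 replicate 2 (0.75 log2, adjusted p = 0.0267), without male bull 1 replicate 3 (0.71, adjusted p = 0.0462), without male bull 2 replicate 1 (0.76, adjusted p = 0.0253) and without male bull 3 replicate 3 (0.79, adjusted p = 0.00941). Without the 4 wide arrays the MX1 difference was 0.81 log2 (adjusted p = 0.0109), a setting chosen after seeing the data.

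ISG15, a ubiquitin-like protein that is conjugated to other proteins during the interferon response, pointed the other way. Its log2 values in females were 4.84, 4.65 and 5.51 in bull 1, 6.14, 4.97 and 6.06 in bull 2, and 6.38, 5.60 and 5.14 in bull 3. In males they were 5.07, 5.05 and 5.86 in bull 1, 6.79, 5.52 and 6.72 in bull 2, and 5.26, 4.5 and 6.76 in bull 3. The 3 highest arrays were male and the ranges overlapped almost fully. The means of 5.48 ± 0.62 in females and 5.73 ± 0.86 in males differed by -0.25 log2, with a 95% interval of -0.83 to 0.33, so that a difference of either sign remains possible at this precision (adjusted p = 0.629, limma).

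MX2, the neighbour of MX1 on chromosome 1 and a related GTPase, stayed between 3.32 and 3.82 in females (median 3.62) and between 3.28 and 3.79 in males (median 3.50). Its difference was 0.03 log2, and the 95% interval of -0.10 to 0.16 does not reach the estimate for MX1. No detection calls accompany these values, so whether MX2 signal exceeded background was not tested. The rule takes probe sets with 1 listed gene, but MX1 and MX2 are paralogs, and cross-hybridisation between them was not tested.

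B2M, the light chain shared by all MHC class I molecules, was the least variable member. Its brightest probe set lay between 11.35 and 11.63 in females (median 11.48) and between 11.25 and 11.44 in males (median 11.38), with 6 of 9 females above every male. The 3 probe sets of B2M gave female minus male differences of 0.12, 0.12 and 0.14 log2, and none passed (adjusted p = 0.149, 0.2 and 0.0921, limma). The plot of sex differences sets these estimates and their intervals side by side.

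**Figure D1:**
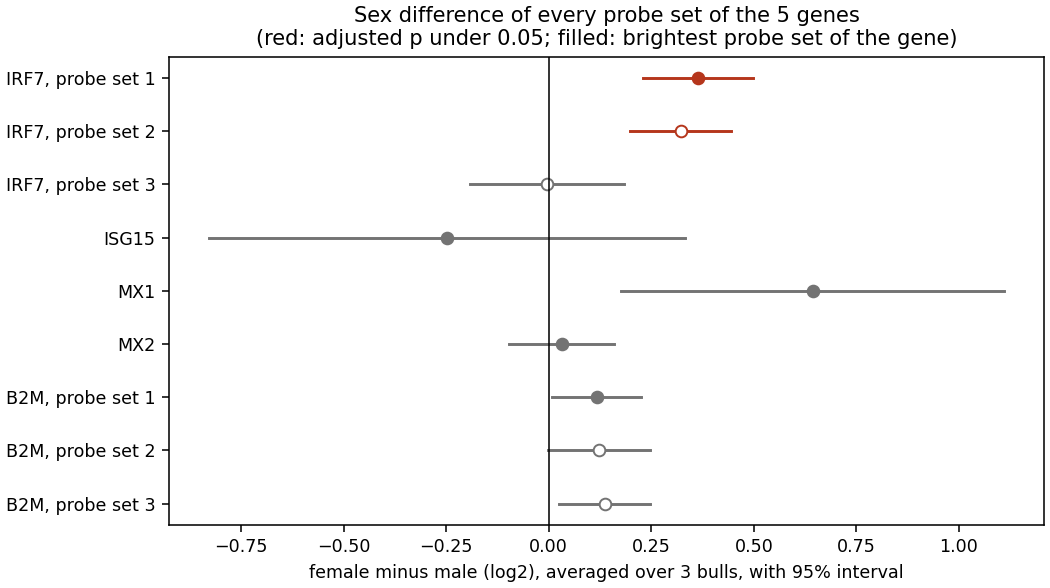
Female minus male difference (log2, x axis) of all 9 probe sets of the 5 genes, averaged over 3 bulls, with 95% intervals as bars; filled points mark the brightest probe set of a gene and red marks an adjusted p under 0.05. Only probe sets 1 and 2 of IRF7 are red, at 0.36 and 0.32, and the intervals of MX1 and ISG15 are the widest.

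Within single bulls the same genes were followed to see whether the sex difference held for each sire. On the brightest IRF7 probe set the female excess was 0.46 log2 for bull 1, 0.30 for bull 2 and 0.33 for bull 3, and on the next one it was 0.45, 0.19 and 0.32. Only the bull 1 contrast called any member, both of these IRF7 probe sets (adjusted p = 0.0224 and 0.0139, limma), where 4.2% of all probe sets were called. Bulls 2 and 3 called 0 of 9, beside 3.13% and 4.18% of all probe sets, and 1 and 4 of the 9 had an unadjusted p under 0.05 in limma. For IRF7 the unadjusted p on the brightest probe set was 0.0131 and 0.00786 in those bulls. The bull 1 call rests on few arrays. On the brightest probe set it was lost without female replicate 2 (adjusted p = 0.0658), female replicate 3 (0.0945), male replicate 1 (0.0546) or male replicate 3 (0.0842), with differences of 0.40 to 0.46 log2. Without the 4 wide arrays, IRF7 was called in bull 2 (0.40 log2, adjusted p = 0.0254) and in bull 3 (0.42 log2, adjusted p = 0.0166).

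The female minus male difference of MX1 was 0.75 log2 for bull 1, 0.20 for bull 2 and 0.98 for bull 3, none past the threshold. In bull 3 it passed without male replicate 3 (1.43 log2, adjusted p = 0.0411), and in bull 2 the sign turned without female replicate 3 (-0.03) or male replicate 2 (-0.25). That of ISG15 was -0.32 log2 for bull 1, -0.62 for bull 2 and 0.20 for bull 3, none past the threshold. The interaction test asks whether the sex difference itself differed between bulls. It called 0 of 9 member probe sets and 0% of all probe sets in limma, with 656 probe sets (2.73%) at an unadjusted p under 0.05. The members' unadjusted p ran from 0.078 to 0.827, so a difference between bulls in the sex effect was not shown for any of them.

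**Figure D2:**
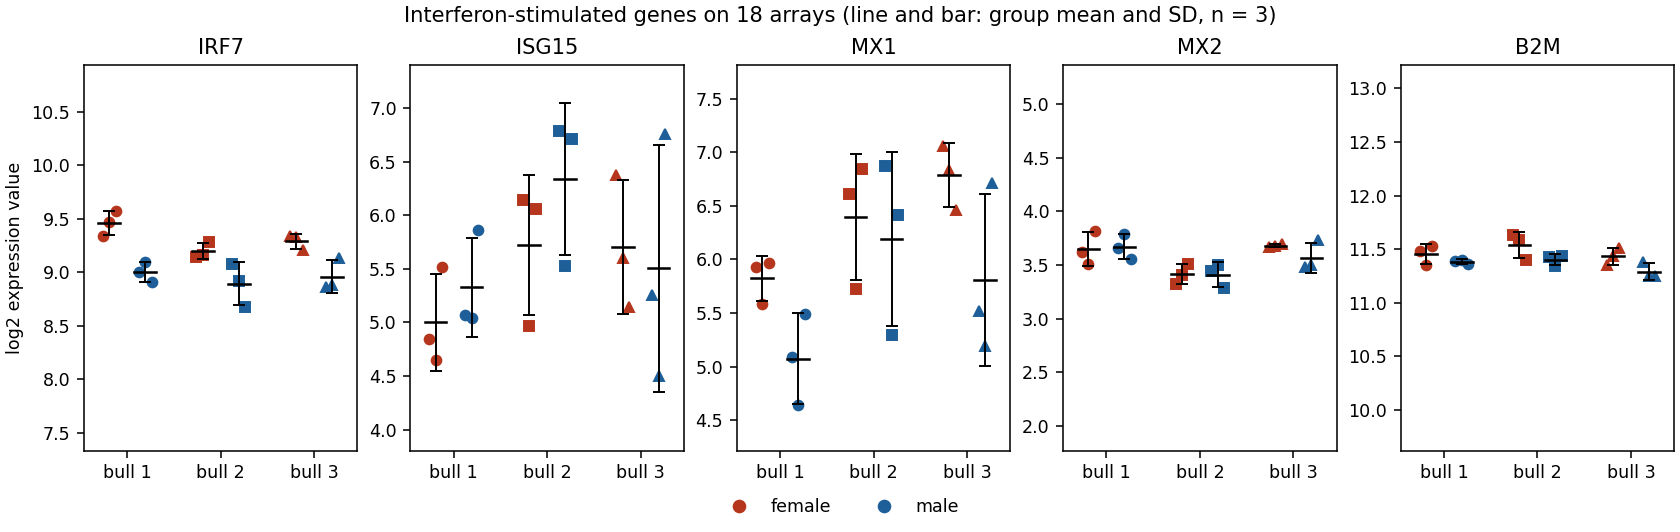
Log2 expression value (y axis) on each of the 18 arrays for the brightest probe set of each gene, by bull (x axis) and sex (females red, males blue), with the group mean as a line and the SD of 3 arrays as a bar; all panels span the same number of log2 units. IRF7 shows females above males in each bull, while MX1 and ISG15 scatter widely within groups and MX2 and B2M hardly move.

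The order of the 6 group means shows where levels stood apart from their spread. For IRF7 the females of bull 1 were highest at 9.46, followed by females of bull 3 at 9.29 and of bull 2 at 9.20, then males of bull 1 at 9.0, of bull 3 at 8.96 and of bull 2 at 8.89. The first 3 gaps in that order exceeded the larger SD of the neighbouring groups, and the gaps among the male groups did not. For MX1 the order was females of bull 3 at 6.79, females of bull 2 at 6.39, males of bull 2 at 6.19, females of bull 1 at 5.82, males of bull 3 at 5.80 and males of bull 1 at 5.07. For ISG15 it was males of bull 2 at 6.34, females of bull 2 at 5.72, females of bull 3 at 5.71, males of bull 3 at 5.51, males of bull 1 at 5.33 and females of bull 1 at 5.0. No neighbours in the MX1 or ISG15 order differed by more than the larger of their SDs.

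Between bulls, no member passed in any contrast, and a bull cannot be told apart from a production or scan batch. MX1 was 0.85 log2 higher in bull 2 than in bull 1 (adjusted p = 0.12), 0.85 higher in bull 3 than in bull 1 (adjusted p = 0.0913) and 0.00 apart between bulls 3 and 2 (adjusted p = 0.998). ISG15 differed by 0.87 log2 for bull 2 minus bull 1 (adjusted p = 0.195), 0.44 for bull 3 minus bull 1 and -0.43 for bull 3 minus bull 2. MX2 differed by -0.25 log2 for bull 2 minus bull 1 (adjusted p = 0.0973), -0.03 for bull 3 minus bull 1 and 0.21 for bull 3 minus bull 2 (adjusted p = 0.12). These contrasts called 0 of 9 member probe sets each, beside 1.52%, 3.53% and 3.74% of all probe sets for bull 2 minus bull 1, bull 3 minus bull 1 and bull 3 minus bull 2. In each contrast 4 of the 9 had an unadjusted p under 0.05 in limma, which for bull 2 minus bull 1 were those of MX1, ISG15 and MX2 and the brightest of IRF7. MX1 passed for bull 2 minus bull 1 without male bull 2 replicate 2 (1.07 log2, adjusted p = 0.0446) and for bull 3 minus bull 1 without male bull 3 replicate 2 (1.00 log2, adjusted p = 0.036). Of 14 cumulus and stromal markers, 2 were higher and 1 lower for bull 2 minus bull 1. For bull 3 minus bull 1, and also for bull 3 minus bull 2, 0 were higher and 1 was lower. POSTN, a matrix protein of connective tissue, was 2.16 log2 higher in bull 2 than in bull 1 (adjusted p = 0.0197), and DCN, the matrix proteoglycan decorin, 0.84 higher (adjusted p = 0.00383). CYP19A1, the enzyme aromatase, fell by 0.49 (adjusted p = 0.03). For bull 3 minus bull 1, POSTN differed by 0.80 log2 (adjusted p = 0.338, limma), DCN by 0.17 (0.532) and CYP19A1 by -0.40 (0.0437). For bull 3 minus bull 2 they differed by -1.36 (adjusted p = 0.0936, limma), -0.66 (0.0114) and 0.08 (0.744). Their part in the MX1 and ISG15 values was not tested for the bulls.

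ISG15 and MX1 varied widely between pools of the same sex and bull. The residual SD within groups was 0.715 log2 for ISG15, larger than that of 99.93% of probe sets, and 0.572 for MX1, larger than 99.85%, where the median of all probe sets was 0.16. For IRF7, MX2 and B2M it was 0.127, 0.115 and 0.0794 on the brightest probe set, below that median. In males of bull 3, ISG15 ran from 4.5 to 6.76 across 3 pools that share sex and sire.

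ISG15 and MX1 moved together from pool to pool. After the group means were subtracted, their deviations had the same sign on 15 of 18 arrays and correlated at Pearson's r = 0.92 and Spearman's rho = 0.91 (permutation within groups, 2-sided p = 4e-05 and 5e-05, and 0.0004 and 0.0005 after Benjamini-Hochberg adjustment over 10 pairs of members, which were examined after seeing the data). The relation held in females (r = 0.88) and in males (r = 0.94), without the 2 arrays farthest from the median (r = 0.85) and without the 4 wide arrays (r = 0.93, 14 arrays). IRF7 and MX2 also correlated, at r = 0.77 and rho = 0.75 (adjusted p = 0.0347 and 0.0415, permutation), and at r = 0.62 without the wide arrays. Against all probe sets that value is less unusual than the ISG15 and MX1 one, since 15.7% of all probe sets had r over 0.5 with IRF7 and 19.5% with MX2, compared with 4.43% for MX1 and 6.22% for ISG15. The other 8 pairs had adjusted p of 0.512 or more. IRF7 had r = 0.34 with MX1 and 0.37 with ISG15, and these became -0.29 and -0.24 without the wide arrays. B2M and IRF7 had r = -0.31 (adjusted p = 0.685, permutation), and -0.74 without the wide arrays.

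The offset between MX1 and ISG15 was larger in females than in males. The log2 value of MX1 minus that of ISG15, a quantity chosen after the values were seen and therefore given with no test, was 0.86 ± 0.31 in females and -0.03 ± 0.35 in males (n = 9 arrays each). Its zero has no meaning, since it compares different probe sets, but its change between arrays does. It ranged from 0.45 to 1.32 in females and from -0.40 to 0.69 in males, with 6 of 9 females above every male. Female minus male came to 1.07, 0.82 and 0.78 log2 in bulls 1, 2 and 3.

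No relation between the embryo's own interferon and the 5 genes passed the test across pools. IFNT2, the only listed interferon tau gene with a probe set here, had log2 values from 10.85 to 11.54 in females and from 9.87 to 10.90 in males. Across the 18 arrays, after group means were removed, r with IFNT2 was 0.09 for MX1, -0.09 for ISG15, -0.41 for IRF7, -0.46 for MX2 and 0.19 for B2M. Spearman's rho was 0.10, 0.03, -0.39, -0.39 and 0.19 in that order. None passed (5 relations, raw p for r 0.118 to 0.805, adjusted 0.354 to 0.805, permutation within groups). The values for IRF7 and MX2 rest on male bull 1 replicate 2 and male bull 3 replicate 3, without which they were 0.00 and 0.05. Without the same 2 arrays r was 0.43 for MX1, 0.31 for ISG15 and 0.25 for B2M, none past the threshold. Within females MX1 had r = 0.66 with IFNT2 and within males -0.13 (n = 9 each), a contrast that was not tested. Genes of the interferon tau family are near-identical, so that the IFNT2 probe set may read several of them.

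The wider interferon pathway was read from lists of genes, 83 of 151 with a probe set. Of these, 14 were higher in females, 4 were lower and 65 were not called, beside 8.12% higher and 7.47% lower over all probe sets. Their median difference was -0.0017 log2, and that of all probe sets was -0.03. Among the ligands 1 of 4 was higher in females, IFNT2 by 0.59 log2 (adjusted p = 0.000678). Among receptors and JAK-STAT signalling 2 of 10 were higher. They were IRF9, a transcription factor of the type I interferon response, at 6.84 ± 0.15 in females and 6.52 ± 0.27 in males (0.32 log2, adjusted p = 0.00994), and IFNGR2, a chain of the interferon gamma receptor (0.27 log2, adjusted p = 0.0302). None of 8 nucleic acid sensors and adaptors was called in limma and 1 had an unadjusted p under 0.05, DHX58, a sensor of viral RNA, at 0.37 log2 and an adjusted p of 0.0568.

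Among the other interferon regulatory factors, 2 of 4 were higher in females. IRF8, best known from myeloid cells, stood at 7.98 ± 0.23 in females and 7.31 ± 0.17 in males (0.67 log2, adjusted p = 4.94e-05). IRF3, which acts with IRF7 in the induction of type I interferons, stood at 8.86 ± 0.15 in females and 8.54 ± 0.10 in males (0.32 log2, adjusted p = 0.000594). IRF2 (-0.05 log2, adjusted p = 0.847) and IRF5 (0.16, adjusted p = 0.203) were not called. IRF8 differed by 0.68, 0.60 and 0.72 log2 in bulls 1, 2 and 3, and IRF3 by 0.37, 0.26 and 0.32. Of 14 blood and immune cell markers, 5 were higher in females and 1 lower, beside the same 8.12% and 7.47%. Higher were HBB (0.81 log2), TYROBP (0.40), HBA (0.26), CSF1R (0.26) and CD3D (0.25), and CD68 was lower (-0.43). The mean of the 14 lay between 4.29 and 4.62 in females and between 4.29 and 4.49 in males. The part of such cells in the IRF8 difference was not tested.

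Effector genes were called in both directions. Of 34 measured, 6 were higher in females, 2 were lower and 26 were not called, and their median was 0.00 log2. Beside these counts and those of the lists below, 8.12% of all probe sets were higher and 7.47% lower in females. The effectors with the smallest p were all higher in females. They were LGALS9, the lectin galectin 9 (0.57 log2, adjusted p = 1.76e-06), LGALS3BP, a secreted galectin ligand (0.58, adjusted p = 3.99e-05), and the antiviral TRIM5 (0.41, adjusted p = 0.00108) and TRIM21 (0.36, adjusted p = 0.00125). The 2 lower ones were SHISA5 (-0.26 log2, adjusted p = 0.00343, limma) and MOV10 (-0.20, adjusted p = 0.0281). Of 6 genes that attach ISG15 to proteins or remove it, 1 was higher, the deconjugating protease USP18 (0.26 log2, adjusted p = 0.0414), whose call was lost in 12 of 18 fits that left out 1 array (adjusted p up to 0.0914). IFNGR2 was lost in 6 of 18 (adjusted p up to 0.0711). Of 17 genes of MHC class I presentation, 2 were higher in females and 2 lower, around a median of -0.04 log2. TAP2, a chain of the peptide transporter, was 0.43 log2 higher (adjusted p = 0.000488) and ERAP1, the peptidase that trims peptides in the endoplasmic reticulum, 0.33 higher (adjusted p = 0.0186). PSMB8, a subunit of the immunoproteasome, fell by 0.26 log2 in females against males (adjusted p = 0.00389) and PSME2, a subunit of its activator, fell by 0.22 (adjusted p = 0.00523).

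Between pools, MX1 and ISG15 varied with some of the effectors. Of the 34 effectors, 7 (20.59%) had r over 0.5 with MX1 and 7 with ISG15, named here after their values were seen. They were the same 7 genes: IFIT5, IFI6, IFI27, IFITM1, IFI44L, SAMD9 and OAS1X. Over all probe sets that share was 4.43% with MX1 and 6.22% with ISG15. The median r of the 34 was 0.245 with MX1 and 0.254 with ISG15. Effectors that did not follow MX1 and ISG15 include RSAD2 (0.08 and 0.03), OASL (-0.07 and -0.14) and GBP4 (-0.57 and -0.58). With MX1, r was 0.93 for IFIT5, which in humans binds RNA ends, 0.90 for IFI6 and for IFI27, small membrane proteins induced by interferon, and 0.82 for IFITM1, which hinders viral entry. With ISG15 the same 4 genes had 0.90, 0.91, 0.91 and 0.90. None of these 7 passed for sex. IFI6 stood at 5.02 ± 0.95 in females and 5.52 ± 1.09 in males (adjusted p = 0.387), and IFIT5 at 3.99 ± 0.28 in females and 3.77 ± 0.31 in males (adjusted p = 0.257). Of 6 genes of ISG15 conjugation and removal, 3 had r over 0.5 with ISG15, namely USP18 at 0.65, the ligase HERC5 at 0.54 and the activating enzyme UBA7 at 0.53. The other 3 were UBE2L6 at 0.34, TRIM25 at 0.03 and HERC6 at -0.02. None of the 4 ligands had r over 0.5 with either.

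**Figure D3:**
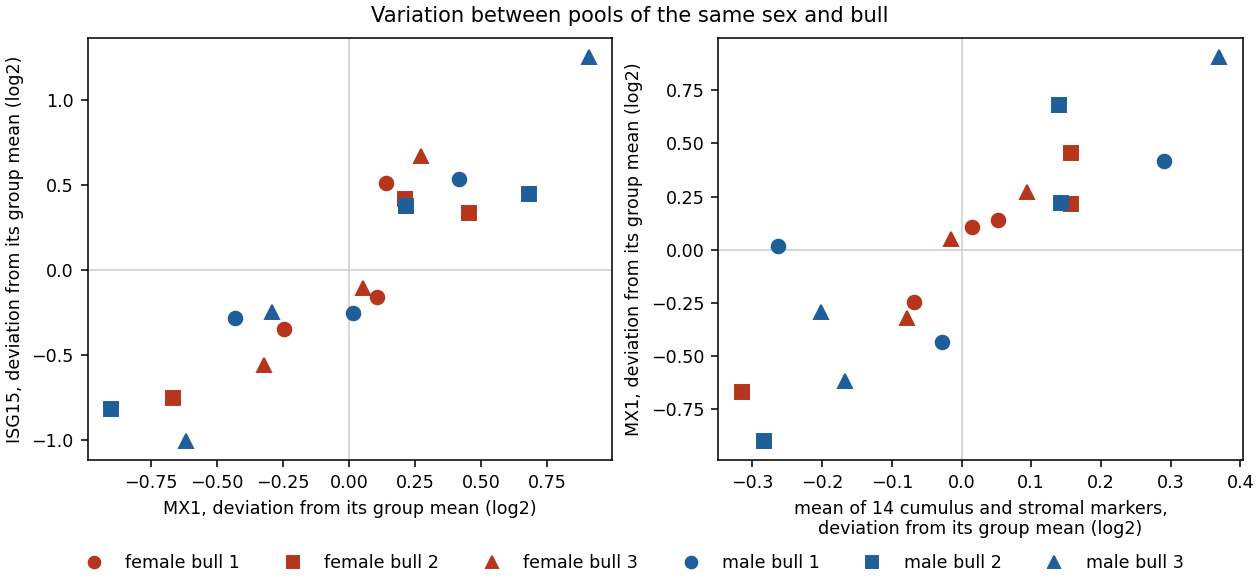
Deviation of each array from its group mean (log2), with ISG15 against MX1 on the left and MX1 against the mean of 14 cumulus and stromal markers on the right; colours mark sex (females red, males blue) and shapes mark the bull. Both clouds run along a diagonal, with r = 0.92 on the left and 0.87 on the right.

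Some markers of cumulus and connective tissue cells varied with the same pools. Cumulus cells surround the egg and can stay attached to embryos in culture, so a list of 14 cumulus and stromal markers was read beside lists for blood cells and for the 3 blastocyst lineages. The mean of the 14 markers correlated with MX1 at r = 0.87 and rho = 0.90 and with ISG15 at r = 0.89 and rho = 0.86 (permutation p = 0.00513 and 0.00054, adjusted p = 0.0205 and 0.00432 over 8 relations examined after seeing the data). Of the 14 markers, 6 had r over 0.5 with MX1. These were VIM and POSTN at 0.84, LUM at 0.78, COL3A1 at 0.68, TNFAIP6 at 0.62 and DCN at 0.58. The other 8 lay between -0.29 and 0.28. They included the type I collagen genes COL1A1 at 0.23 and COL1A2 at -0.10 as well as the cumulus genes HAS2 at -0.23 and CYP19A1 at -0.12. VIM, the mesenchymal intermediate filament, ranged from 3.42 to 5.85 in females and from 3.28 to 6.76 in males, and POSTN from 2.75 to 6.56 in females and from 3.25 to 6.58 in males. The mean of the 14 is unweighted, so markers of such wide spread weigh most in it. The median r of the 14 single markers was 0.26 with MX1 and 0.47 with ISG15. Fewer cells of a type and less RNA per cell cannot be told apart in pooled RNA.

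Blood markers showed no such relation, with r of -0.02 for MX1 and 0.14 for ISG15 over the mean of 14. PTPRC, the pan-leukocyte surface protein, stayed between 2.53 and 3.09 in females and between 2.57 and 3.06 in males. Of the 3 inner cell mass genes, POU5F1 and KLF4 had r of -0.50 with MX1 and SOX2 had -0.11. The 7 trophectoderm markers had a median r of -0.04 with MX1 and the 6 primitive endoderm markers -0.18. The highest were KRT8 at 0.35 and GATA4 at 0.44. For sex, TFAP2A of the trophectoderm list (-0.54 log2, adjusted p = 0.0319, limma) and GATA4 (-0.22, adjusted p = 0.0324) were lower in females. No other marker of these 3 lists was called, where 7.47% of all probe sets were lower. The index of RNA quality, the difference between 5′ and 3′ control probes, gave r of -0.46 with MX1 and -0.39 with ISG15, and the spread of an array 0.33 and 0.46 (adjusted p = 0.288 or more, permutation).

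**Figure D4:**
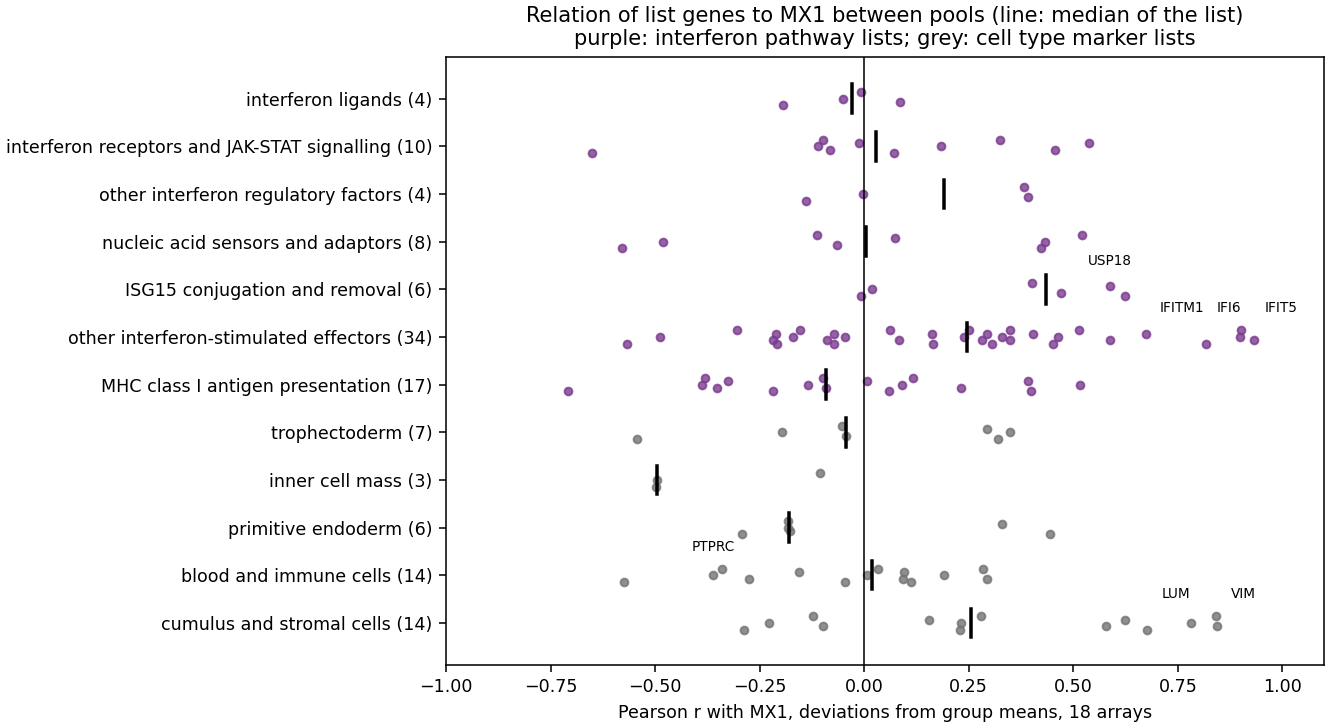
Pearson's r with MX1 across deviations of 18 arrays from their group means (x axis) for each measured gene of the interferon pathway lists (purple) and the cell type marker lists (grey), with the number of genes in brackets and the median of each list as a line. IFIT5, IFI6 and IFITM1 stand at 0.82 to 0.93 and VIM and LUM at 0.84 and 0.78, while no blood marker lies above 0.5.

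The stromal marker mean overlapped between the sexes, from 5.02 to 5.62 in females (median 5.23) and from 4.89 to 5.62 in males (median 5.19). Single markers did differ: 3 of the 14 were higher in females and 1 lower, beside 8.12% and 7.47% of all probe sets. Higher were CYP19A1 (0.56 log2, adjusted p = 0.000184, limma), DCN (0.33, adjusted p = 0.0467) and COL1A1 (0.19, adjusted p = 0.0421). COL1A2 was lower (-0.26, adjusted p = 0.0224). The marker mean was also entered in the fit as a covariate, a setting added after seeing the data. The sex difference of MX1 was then 0.61 log2 with an SE of 0.118 in place of 0.22, and it passed (adjusted p = 0.00145, limma). The mean had already been seen to correlate with MX1 within groups (r = 0.87). A smaller SE therefore followed from the choice of covariate, and the pass is no separate support. ISG15 had -0.29 log2 (SE 0.136, adjusted p = 0.174) and IRF7 0.36 log2 (adjusted p = 0.000763). In that fit 15.3% of all probe sets were called. IFIT5 passed there as higher in females (0.21 log2, adjusted p = 0.0239), and IFI6 and IFI27 as lower (-0.57 and -0.31 log2, adjusted p = 0.0117 and 0.0267). Without the covariate these 3 differences had the same signs (0.23, -0.51 and -0.26 log2) and none passed. IFIT5, IFI6 and IFI27 had themselves been named for their r with MX1, so the same limit holds for them.

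Outside the lists, the genes most like each member were taken by r over the 18 deviations, as a description. The nearest to both MX1 and ISG15 was COL3A1, a type III collagen chain, read on a dimmer probe set than the marker list uses (r = 0.94 with each), followed by RARRES2, which encodes the chemoattractant chemerin (0.93 with each). The third was IFIT5 for MX1 and XCL1, a chemokine, for ISG15 (0.91). For IRF7 they were POLD4, a small subunit of DNA polymerase delta, UOX, a urate oxidase, and RHAG, an ammonium channel of red blood cells (0.91, 0.90 and 0.90). For MX2 they were MOSPD3, SLC46A3 and the lipid carrier APOM (0.94, 0.90 and 0.89). For B2M they were SPG7, a mitochondrial protease, the helicase RECQL5 and the RNA-binding RBM15B (0.85, 0.83 and 0.82). UOX, RHAG, SPG7 and this COL3A1 probe set were dim, with means of 2.45, 3.44, 3.44 and 3.47 over the 18 arrays. Whether their signal exceeded background was not tested, and the nearest genes were not sought again without the wide arrays. No gene of the interferon pathway lists was among the 3 nearest to IRF7, MX2 or B2M. Those lists hold only 83 measured genes, where the series has 9155, so this absence says little about these members.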

How the data were processed

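The authors deposited log2 expression values per probe set. RMA and Partek 6.4 are named, with no roles, in the submitters' processing notes. RMA draws array distributions together, so a shift of all transcripts would not be seen, and it understates large differences of dim transcripts. That they are log2 was inferred from their range. No scan date or batch was found in the labels. After 112 control probe sets were left out, 24016 of 24128 were tested. By GEO's platform annotation, 13292 have 1 gene, 86 have several and 10638 have none. Symbols were updated through a RefSeq table of ARS-UCD2.0, used only for names, chromosomes and neighbours, where 13263 matched and 29 did not.

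A mean for each of the 6 groups was fitted in R 4.3.3 by limma 3.58.1 (lmFit and eBayes), leaving 12 residual degrees of freedom. Contrasts gave the sex difference over all bulls and per bull, their interaction, and the differences between bulls. Benjamini-Hochberg adjustment ran over all tested probe sets, and an adjusted p under 0.05 was a call. A fold is the antilog of a log2 difference. A gene with several probe sets is read on the brightest by mean, unless all are given. Relations across arrays used deviations from the 6 group means and 100000 permutations within groups. Steps were tested on simulated data, and figures were drawn with matplotlib 3.10.9.

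The genes and lists were chosen with earlier results of these data known. Named were the members, up to 4 called genes per pathway list by smallest p, the 3 genes with the highest r with each member, XIST and IFNT2; markers and effectors outside that rule were named after their values were seen. Alternatives were a model without interaction, a further quantile normalization, only the brighter 50% of probe sets, an intensity trend, array weights, the sample number as a block, 1 array or 1 bull fewer, bulls as replicates, and averaging a gene's probe sets. Dropping the 4 wide arrays and the stromal covariate were added after seeing the data. Promoter motifs were not analysed here.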

Additional observations from a re-analysis of the deposited data

How the results depend on the processing

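IRF7 stayed past the threshold for sex on both brighter probe sets under every alternative run, and ISG15, MX2 and B2M on their brightest probe sets stayed short of it. The dimmest B2M probe set passed with the brighter 50%, an intensity trend and array weights (adjusted p = 0.0387, 0.0461 and 0.0428). MX1 (0.64 log2, adjusted p = 0.0587) passed with the brighter 50% of probe sets (0.64, adjusted p = 0.0431), an intensity trend (0.64, 0.0359), array weights (0.73, 0.00619), bull as the replicate (0.64, 0.00692), without bull 2 (0.87, 0.0242), without the 4 wide arrays (0.81, 0.0109) and with the marker covariate (0.61, 0.00145). Leaving out 1 array gave 0.49 to 0.79 log2, past the threshold in 4 of 18 fits. The marker covariate was chosen after its relation to MX1 was seen, so that pass is no separate support. The cause of these changes was not tested. MX2 turned to -0.0082 without bull 3.

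Across all groups, arrays of the same sample number were no more alike than others. Their deviations correlated at a median of 0.0014 over 45 pairs, and those of different numbers at 0.0104 over 90. These pairs mix bulls and sexes, so whether numbers pair the sexes within a bull was not tested. With the number as a replicate block MX1 passed (0.64, adjusted p = 0.0144), bull 3 minus bull 1 called 1 member probe set, which was MX1 (adjusted p = 0.039), USP18 missed the threshold (adjusted p = 0.052), and sex called 3527 probe sets in place of 3743.

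Counts of member probe sets called moved most with array weights, to 1 and 4 in bulls 2 and 3 and to 1, 2 and 4 for bull 2 minus bull 1, bull 3 minus bull 1 and bull 3 minus bull 2. Without the wide arrays bulls 2 and 3 called 1 and 2. The brighter 50% called 1 in bull 3, 2 for bull 3 minus bull 1 and 2 for bull 3 minus bull 2. An intensity trend called 1 and 2 in the same bull contrasts, and quantile normalization 1 for bull 3 minus bull 2. Leaving out 1 array gave 0 to 2 in bull 1, 0 to 1 in bull 3, and 0 to 1, 0 to 2 and 0 to 1 for the 3 bull contrasts. Pathway genes called for sex numbered 11 without bull 3, against 18, and 15 to 20 without 1 array.

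Signs turned only for values that had not passed. The third IRF7 probe set gave 0.12 without bull 2, 0.0099 without bull 3, 0.0264 without the wide arrays and -0.0534 to 0.0497 without 1 array. MX2 in bull 1 gave 0.0018 after quantile normalization and -0.1047 to 0.0502 without 1 array, and in bull 2 -0.0613 to 0.049. MX1 in bull 2 ran from -0.25 to 0.54, and ISG15 in bull 3 from -0.30 to 0.83. For bull 3 minus bull 1 MX2 ran from -0.0749 to 0.0077. For bull 3 minus bull 2 MX1 gave -0.0467 with array weights, -0.0543 without the wide arrays and -0.22 to 0.17 without 1 array. The r with IFNT2 turned to 0.003 for IRF7, 0.31 for ISG15 and 0.0505 for MX2 without 2 arrays, to 0.47 for ISG15 in females and to -0.13 for MX1 in males, none past the threshold. Without bull 1, IRF9, PSMB8, PSME2 and IFNGR2 lost their calls, as did IRF9 and ERAP1 without bull 3 and IFNGR2 without bull 2, whereas USP18 lost its call without any 1 bull. Array number limits all of these, and signal over background could not be read.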
